A study of Mus musculus with 6 samples.

Results

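Small leucine-rich proteoglycans, lysyl oxidases and SPARC are secreted by connective tissue cells and shape the collagen fibrils of the gut wall. The 10 genes described here were taken by symbol from a deposited table of 25339 genes measured in mouse colon, and all 10 were found. They comprise 6 proteoglycan genes (Lum, Dcn, Bgn, Fmod, Ogn and Prelp), 3 lysyl oxidase genes (Lox, Loxl1 and Loxl2) and Sparc. RNA sequencing was done on 3 libraries from mice given lenvatinib and 3 from mice given DMSO, the solvent. Lenvatinib is an oral inhibitor of receptor tyrosine kinases, among them the VEGF, FGF and PDGF receptors. The labels give no strain, sex, age, dose, time or colitis induction for either group. They call each library a biological replicate, without saying which animal it came from. The p-values therefore measure the spread between these libraries, which may in part be technical.

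Proteoglycans of this family carry a curved repeat domain that binds collagen, and they set how thick and how evenly spaced fibrils become. Decorin and biglycan bear chondroitin or dermatan sulfate chains, whereas lumican and fibromodulin can bear keratan sulfate. Lysyl oxidases oxidise lysines of collagen and elastin so that crosslinks can form between molecules. SPARC is a calcium-binding protein that attaches to collagen and helps its deposition into fibrils.

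Each library held between 37996789 and 39623411 reads, recovered from the steps of the deposited values. These are FPKM, read fragments scaled to gene length and to library size. Libraries 2 and 3 of each group were close to each other. Their median absolute difference over all genes tested was 0.0503 on the log2 scale in the lenvatinib pair and 0.0524 in the DMSO pair, against 0.128 to 0.209 for the other pairs. DMSO 1 was the only library with the Y-linked transcript Ddx3y above 0, at 6.54 FPKM. Xist, the transcript of the inactive X chromosome, was at 0.00147 FPKM in DMSO 1 and at 15.9 to 19.8 FPKM in the other libraries, so DMSO 1 had the pattern of a male and the others that of females. Bgn lies on the X chromosome, and without DMSO 1 its log2 fold change was −0.42 (limma adjusted p = 0.264). Colon epithelial markers summed to between 13597 and 16559 FPKM in lenvatinib libraries and between 14857 and 16059 FPKM in DMSO libraries (0 of 8 passed in limma, 4 at an unadjusted p below 0.05, voom on the recovered reads 0). Behind this sum, 6 markers were lower in every lenvatinib library than in any DMSO library, as 17.5% of all genes tested were, and 1 was higher. Muc2 averaged 83.4 FPKM in lenvatinib and 174 FPKM in DMSO libraries, and Slc26a3, the higher marker, 302 and 175 FPKM. Library 1 weighed on both means. Muc2 measured 262 FPKM in DMSO 1, against 122 and 136 FPKM in DMSO 2 and 3. Slc26a3 measured 205 FPKM in lenvatinib 1, near the 195 FPKM of DMSO 1, against 351 and 350 FPKM in lenvatinib 2 and 3. Transcripts typical of the small intestine, of which 7 of 8 tested rose in limma (voom 6), summed to between 299 and 422 FPKM in lenvatinib libraries and between 14.1 and 14.7 FPKM in DMSO libraries. With libraries 2 and 3 of each group averaged 1 of the 8 passed, and with the replicate number as a block 2.

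Lum and Sparc fell in the lenvatinib libraries, Lum to 11.5 ± 0.411 FPKM against 22.9 ± 1.43 FPKM in DMSO libraries, and Sparc to 91.0 ± 5.85 FPKM against 145 ± 9.95 FPKM in DMSO libraries (mean ± SD, n = 3 each). The other 7 tested genes did not pass the test, and Dcn, Ogn and Prelp had mean levels above those of the DMSO libraries. Bgn, Loxl1 and Loxl2 were lower in every lenvatinib library than in any DMSO library without passing. The test was limma on log2(FPKM + 1), fitted to the 11774 genes that averaged 1 FPKM or more, and a gene passed at a Benjamini-Hochberg adjusted p below 0.05. Over all genes tested 2.03% were called, 0.934% lower and 1.10% higher in lenvatinib libraries. Among the 9 genes tested here 2 were called, both lower, and 5 had an unadjusted p below 0.05, against 22.0% of all genes tested. Their median log2 fold change was −0.33, beside −0.07 for all genes tested.

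**Figure D1:**
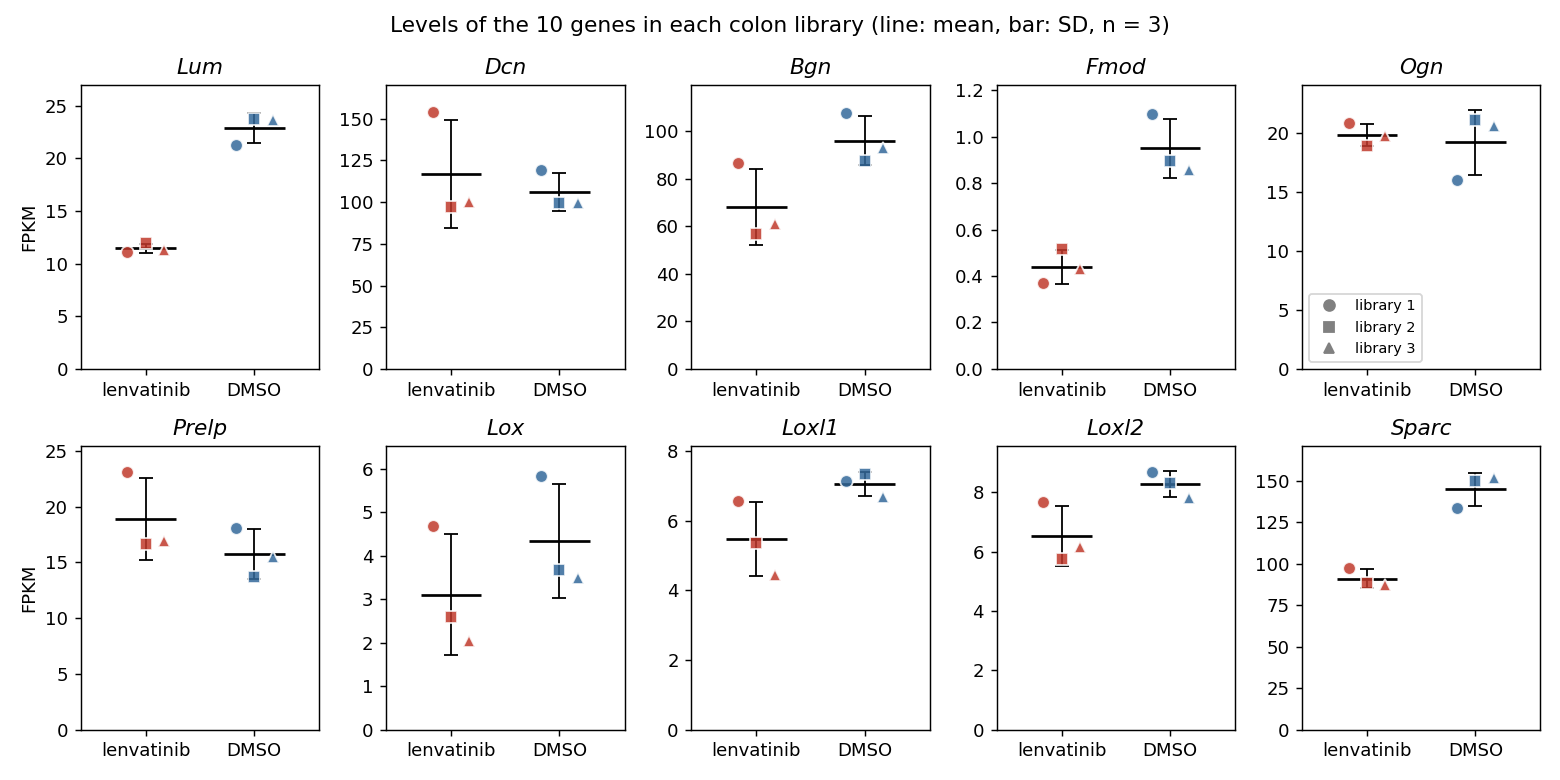
FPKM of each of the 10 genes in every library, lenvatinib left of DMSO, with symbols for library 1, 2 and 3, a line at the mean and bars for the SD (n = 3). Lum and Sparc show tight, separate groups. Library 1 lies highest in the lenvatinib group for 8 of the 10 genes, Sparc among them, and well above libraries 2 and 3 for Dcn, Bgn, Prelp and Lox.

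Lumican was the clearest member. Lum measured 11.1, 11.9 and 11.3 FPKM in lenvatinib 1 to 3, against 21.2, 23.7 and 23.7 FPKM in DMSO 1 to 3. All lenvatinib libraries lay below all DMSO libraries, and lenvatinib 1 did not stand apart from lenvatinib 2 and 3. The mean was 49.9% lower, with a log2 fold change of −0.94 (SE 0.068; limma adjusted p = 0.00289). These values rest on 885 to 967 reads per lenvatinib library and 1675 to 1952 reads per DMSO library, so counting error is small beside the difference. The call was lost with libraries 2 and 3 of each group averaged (limma adjusted p = 0.196), a setting of 2 samples against 2 in which 0.0340% of all genes passed. It was also lost with the replicate number as a block (limma adjusted p = 0.0503), a setting of all 6 libraries in which 0.246% of all genes passed. Over the 18 other settings the adjusted p ranged from 3.34e-06 to 0.196.

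Fibromodulin, which competes with lumican for a shared site on collagen, was scarce in these libraries. Fmod measured 0.368, 0.516 and 0.430 FPKM in lenvatinib 1 to 3, against 1.10, 0.897 and 0.855 FPKM in DMSO 1 to 3. The groups did not overlap, and the mean was 53.8% lower in lenvatinib libraries. Only 44 to 63 reads stood behind each lenvatinib value and 104 to 130 reads behind each DMSO value. With a mean below 1 FPKM, Fmod was left out of the main test. With the filter lowered to 0.1 FPKM it did not pass (log2 fold change −0.44, SE 0.077, limma adjusted p = 0.0564, where 0.758% of 15695 genes passed as lower). The log2 scale with a pseudocount of 1 understates the change of a gene at this level.

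Decorin, the most abundant of the proteoglycan transcripts, did not pass the test. Dcn measured 154, 96.8 and 99.8 FPKM in lenvatinib 1 to 3, against 119, 99.3 and 99.5 FPKM in DMSO 1 to 3. Libraries 2 and 3 of both groups lay together near the same level, and lenvatinib 1 was the highest of all 6. The log2 fold change was 0.11, with a 95% interval of −0.36 to 0.58 (limma adjusted p = 0.735). Without lenvatinib 1 the sign turned and the change became −0.10 (adjusted p = 0.413). The interval reaches from a moderate decrease to a moderate increase, so neither was resolved for Dcn.

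Biglycan is the closest relative of decorin and can also act outside fibrils as a ligand of Toll-like receptors. Bgn measured 86.5, 56.9 and 60.9 FPKM in lenvatinib 1 to 3, against 108, 87.6 and 92.9 FPKM in DMSO 1 to 3. The highest lenvatinib library, number 1, lay just below the lowest DMSO library. The log2 fold change was −0.51 (95% interval −0.92 to −0.10) and did not pass (limma adjusted p = 0.173). Without lenvatinib 1 it was −0.69 and passed (adjusted p = 0.00507), a setting in which 38.0% of all genes tested passed.

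Osteoglycin and PRELP transcripts did not pass, and their groups overlapped. Ogn, also called mimecan, measured 20.8, 18.9 and 19.7 FPKM in lenvatinib 1 to 3, against 16.0, 21.0 and 20.5 FPKM in DMSO 1 to 3. Its groups overlapped, DMSO 1 was the lowest library, and the log2 fold change of 0.05 had a 95% interval of −0.22 to 0.32 (limma adjusted p = 0.781). Without DMSO 1 the change of Ogn was −0.07 (adjusted p = 0.524). Prelp, whose product anchors basement membranes to the underlying connective tissue, measured 23.1, 16.7 and 16.9 FPKM in lenvatinib 1 to 3, against 18.1, 13.7 and 15.5 FPKM in DMSO 1 to 3. In each group library 1 was the highest, and the DMSO 1 value lay above lenvatinib 2 and 3. The log2 fold change was 0.24 (95% interval −0.13 to 0.61; limma adjusted p = 0.367).

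**Figure D2:**
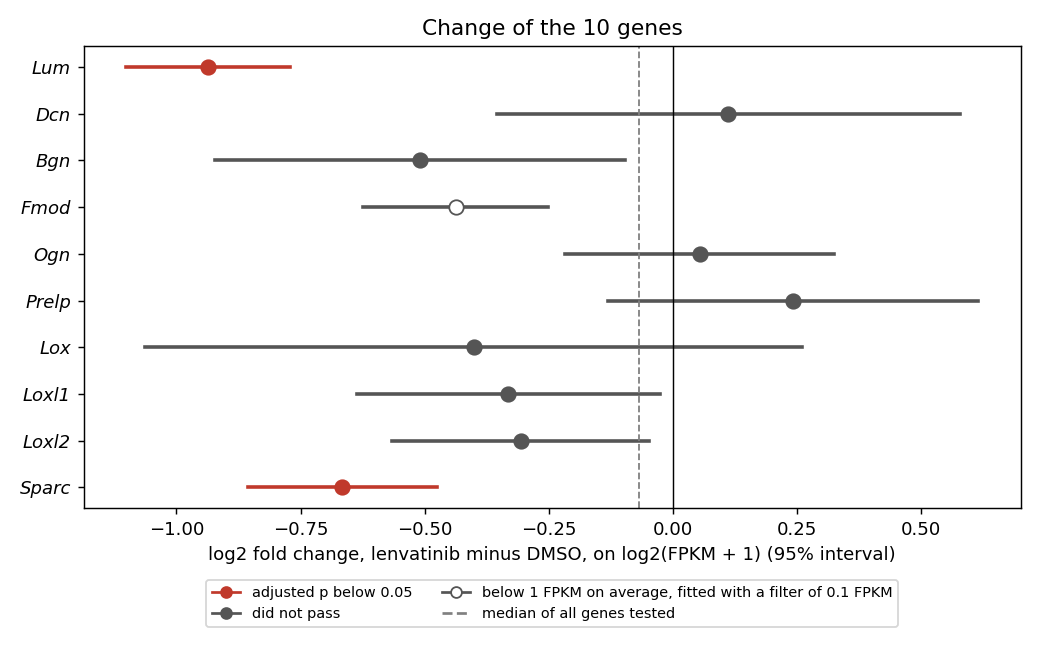
Log2 fold change of each gene, lenvatinib minus DMSO, with its 95% interval on the log2(FPKM + 1) scale and the median of all genes tested as a dashed line. The intervals of Lum (−1.10 to −0.77) and Sparc (−0.86 to −0.48) lie well below 0, and those of Dcn, Ogn, Prelp and Lox include 0.

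The make-up of the proteoglycan transcripts differed between the groups, with more of it decorin and less of it biglycan and lumican in lenvatinib libraries. FPKM values are per length, so levels of different genes can be set side by side, and ratios within a library do not depend on how libraries are scaled. Decorin made up 52.1, 48.0 and 47.7% of the summed level of the 6 genes in lenvatinib 1 to 3, against 42.1, 40.3 and 39.3% in DMSO 1 to 3. Biglycan made up 29.2, 28.2 and 29.1% in lenvatinib 1 to 3, against 38.0, 35.6 and 36.7% in DMSO 1 to 3. Lumican's share was 3.76, 5.91 and 5.42% in lenvatinib 1 to 3, against 7.49, 9.64 and 9.37% in DMSO 1 to 3. None of these shares overlapped between the groups. The share of Prelp was also apart and higher, at 7.80, 8.27 and 8.08% in lenvatinib 1 to 3, against 6.37, 5.55 and 6.13% in DMSO 1 to 3. That of Fmod was apart and lower, and that of Ogn overlapped. Shares add up to a fixed total, so the Dcn share can be higher without a higher Dcn level, and Dcn itself did not pass. The shares are given as a description, without a test.

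Ratios between pairs of these genes were also read within each library. Dcn stood at 1.78, 1.70 and 1.64 times Bgn in lenvatinib 1 to 3, against 1.11, 1.13 and 1.07 times in DMSO 1 to 3. Library 1, which had the highest Dcn and Bgn in each group, did not stand apart in this ratio. Dcn stood at 13.8, 8.11 and 8.80 times Lum in lenvatinib 1 to 3, against 5.62, 4.18 and 4.20 times in DMSO 1 to 3, and here library 1 was the highest of each group. The summed level of the 6 genes was 296, 202 and 209 FPKM in lenvatinib 1 to 3, against 284, 246 and 253 FPKM in DMSO 1 to 3, with overlapping groups.

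**Figure D3:**
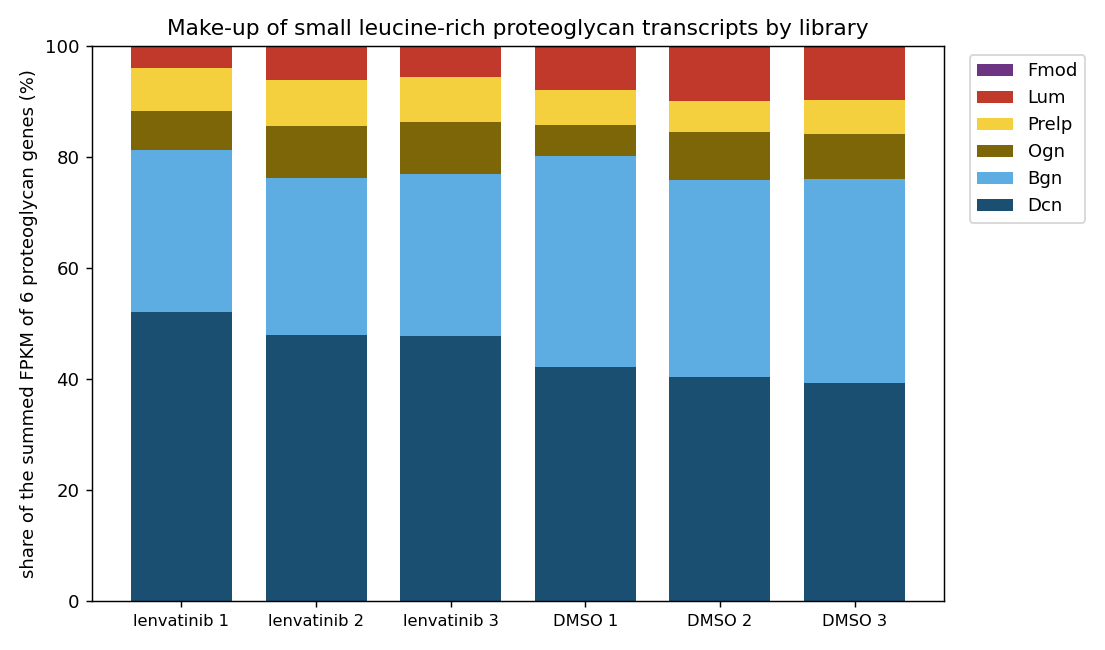
Share of each proteoglycan gene in the summed FPKM of the 6 genes, as stacked bars per library, lenvatinib left of DMSO. The Dcn share is 47.7 to 52.1% in lenvatinib libraries and 39.3 to 42.1% in DMSO libraries, and Fmod is below 0.4% everywhere and not visible at this scale.

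Neighbouring genes of the family had different fold changes. In the RefSeq gene table of the mouse assembly GRCm38.p6, Dcn and Lum stand next to each other, followed by Kera and Epyc, which encode further proteoglycans of this family. Optc, Prelp and Fmod form another such group, and Ecm2, Aspn, Omd and Ogn a further one. The 95% intervals of the log2 fold change did not meet for Dcn (−0.36 to 0.58) and Lum (−1.10 to −0.77). Nor did they for Prelp (−0.13 to 0.61) and Fmod (−0.62 to −0.25, fitted with the lower filter). The differences between the neighbours were not tested themselves. Beside Ogn, the asporin gene Aspn averaged 6.05 ± 0.373 FPKM in lenvatinib libraries and 7.88 ± 0.584 FPKM in DMSO libraries (n = 3 each). Its groups did not overlap, with a log2 fold change of −0.33 that did not pass (limma adjusted p = 0.103). Ecm2 averaged 0.854 ± 0.157 and 0.958 ± 0.177 FPKM in lenvatinib and DMSO libraries. Epyc and Omd were near 0 in both groups.

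Promoter sequences are shown for the 5 of the 10 genes that have an entry in the RefSeq promoter table (build GRCm38.p6), so that genes with lower levels in every lenvatinib library (Sparc, Bgn and Fmod) can be read beside genes without (Ogn and Prelp). Each is the 120 bases before the annotated start, 5′ to 3′ on the gene's strand. Sparc lies at chr11:55420081-55420200 on the minus strand, Bgn at chrX:73483481-73483600 on the plus strand and Fmod at chr1:134037134-134037253 on the plus strand. Ogn lies at chr13:49607895-49608014 on the plus strand and Prelp at chr1:133921402-133921521 on the minus strand. Capitals mark matches on either strand to the TATA box TATAAA, the CCAAT box, the GC box GGGCGG, the SMAD-type element CAGACA, the AP-1 element TGANTCA or the repeat GGAGGA.
Sparc: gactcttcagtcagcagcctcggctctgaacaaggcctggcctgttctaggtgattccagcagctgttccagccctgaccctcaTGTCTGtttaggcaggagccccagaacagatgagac
Bgn: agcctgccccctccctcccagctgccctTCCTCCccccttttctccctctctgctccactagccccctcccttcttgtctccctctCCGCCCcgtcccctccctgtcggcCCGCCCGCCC
Fmod: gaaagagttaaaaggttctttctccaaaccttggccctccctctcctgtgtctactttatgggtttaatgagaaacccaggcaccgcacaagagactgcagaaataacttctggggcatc
Ogn: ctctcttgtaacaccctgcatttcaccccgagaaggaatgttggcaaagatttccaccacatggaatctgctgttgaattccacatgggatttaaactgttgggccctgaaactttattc
Prelp: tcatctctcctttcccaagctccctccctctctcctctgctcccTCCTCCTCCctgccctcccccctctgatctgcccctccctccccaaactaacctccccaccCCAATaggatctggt

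The windows differed in base composition and in the motifs they held. Bgn had 71.7% G or C and 3 GC boxes, the last pair overlapping, and 26.5% of 32851 promoter windows of this length held at least 1. Sparc had 56.7% G or C and the only CAGACA match, at position −36 from the start, a motif found in 7.86% of all windows. Prelp had a CCAAT match, as 21.3% of windows did. Prelp and Bgn both held GGAGGA (16.8% of windows), with the matches in Prelp overlapping. Fmod and Ogn, with 46.7 and 44.2% G or C, held none of the motifs. TATAAA (6.34% of windows) and TGANTCA (3.41%) occurred in none of the 5. A match is a description of the sequence and shows neither binding nor its absence.

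The lysyl oxidase transcripts were all lower on average in lenvatinib libraries, but limma called none of these 3 genes (2 at an unadjusted p below 0.05, voom 0). Lox, the founding enzyme of the family, measured 4.68, 2.60 and 2.04 FPKM in lenvatinib 1 to 3, against 5.84, 3.67 and 3.49 FPKM in DMSO 1 to 3. Library 1 was well above libraries 2 and 3 in both groups, and the lenvatinib 1 value lay above DMSO 2 and 3. Its log2 fold change was −0.40, with a 95% interval of −1.06 to 0.26 (limma adjusted p = 0.392).

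Loxl1, which acts mainly on elastic fibres, measured 6.57, 5.37 and 4.45 FPKM in lenvatinib 1 to 3, against 7.16, 7.35 and 6.69 FPKM in DMSO 1 to 3. The groups did not overlap, by a narrow margin between lenvatinib 1 and DMSO 3. Loxl2, which crosslinks the collagen IV network of basement membranes, measured 7.67, 5.76 and 6.16 FPKM in lenvatinib 1 to 3, against 8.67, 8.32 and 7.81 FPKM in DMSO 1 to 3, and its groups were likewise just apart. Their log2 fold changes were −0.33 (95% interval −0.64 to −0.03; limma adjusted p = 0.205) and −0.31 (−0.57 to −0.05; 0.184). Without lenvatinib 1 all 3 lysyl oxidase genes passed (limma adjusted p = 0.0496 for Lox, 0.0119 for Loxl1 and 0.00691 for Loxl2), as 38.0% of all genes did. The summed level of the 3 genes was 18.9, 13.7 and 12.7 FPKM in lenvatinib 1 to 3, against 21.7, 19.3 and 18.0 FPKM in DMSO 1 to 3.

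Sparc, the most abundant of the 10 transcripts in DMSO libraries, measured 97.7, 88.2 and 87.0 FPKM in lenvatinib 1 to 3, against 134, 150 and 152 FPKM in DMSO 1 to 3. Every lenvatinib library lay below every DMSO library, and the mean was 37.3% lower. The log2 fold change was −0.67 (SE 0.079; limma adjusted p = 0.0149), resting on 8901 to 9879 reads per lenvatinib library and 13404 to 15648 reads per DMSO library. Sparc stood second to Dcn in mean level in lenvatinib libraries and above Dcn in DMSO libraries, although the Sparc and Dcn ranges overlapped in the lenvatinib group. The Sparc call was lost without lenvatinib 2 (limma adjusted p = 0.0984), lenvatinib 3 (0.0973), DMSO 2 (0.103) or DMSO 3 (0.103), with log2 fold changes of −0.65 to −0.63. It was also lost with libraries 2 and 3 averaged (0.516) or kept as a random block (0.0764), settings in which 0.0340% and 0.391% of all genes passed.

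Counted over all 10 genes, 6 were lower in every lenvatinib library than in any DMSO library, 4 overlapped and none was higher throughout. Of the 9 tested genes 5 were apart in this way, against 17.5% of all genes tested that were apart and lower, and 27.5% that were apart in either direction. Lenvatinib 1 was the highest library of its group for 8 of the 10 genes, and DMSO 1 of its group for 6 of the 10. Since these are bulk samples, fewer cells of a type and less RNA per cell cannot be told apart.

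Among further proteoglycans of the family, 4 of the 11 genes in the table reached 1 FPKM on average, and none passed (2 at an unadjusted p below 0.05; voom on the recovered reads called 0). Podn, for podocan, averaged 3.63 ± 0.677 FPKM in lenvatinib libraries and 2.70 ± 0.0249 FPKM in DMSO libraries, without overlap (log2 fold change 0.31, limma adjusted p = 0.194). The genes of chondroitin and dermatan sulfate chain synthesis did not pass either: 0 of 15 tested (3 at an unadjusted p below 0.05, voom 0), with a median log2 fold change of −0.08. Dse, an epimerase that makes dermatan sulfate, averaged 1.96 ± 0.627 FPKM in lenvatinib libraries and 3.11 ± 0.0835 FPKM in DMSO libraries (limma adjusted p = 0.147).

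Other enzymes and chaperones that modify, process or crosslink collagen had a median log2 fold change of −0.18, and 17 of 21 tested genes (81.0%) had negative values, as 63.9% of all genes tested did. None passed in limma (9 at an unadjusted p below 0.05, voom 0). Serpinh1, the collagen chaperone HSP47, averaged 37.3 ± 2.70 FPKM in lenvatinib libraries and 70.7 ± 15.4 FPKM in DMSO libraries (limma adjusted p = 0.0633). DMSO 1, at 53.0 FPKM, lay below DMSO 2 and 3, at 80.4 and 78.7 FPKM. Pcolce, which enhances procollagen processing, averaged 16.3 ± 1.14 FPKM in lenvatinib libraries and 27.4 ± 5.53 FPKM in DMSO libraries (0.0880). Without DMSO 1, where 2.29% of all genes passed, Serpinh1 (log2 fold change −1.08, limma adjusted p = 0.0103) and Pcolce (−0.87, adjusted p = 0.0155) both passed as lower. Both also passed without lenvatinib 1 (0.0142 and 0.0213, where 38.0% of all genes passed) and with sample weights (where 64.4% passed), and Serpinh1 with quantile normalization (0.0422). In all, Serpinh1 passed in 4 and Pcolce in 3 of 18 alternative settings. Neither passed with the replicate number as a block (limma adjusted p = 0.193 and 0.228) or with libraries 2 and 3 averaged (0.800 and 0.893). Loxl3, a further lysyl oxidase, averaged 1.15 ± 0.204 and 1.72 ± 0.185 FPKM in lenvatinib and DMSO libraries, without overlap (0.147), and Loxl4 did not reach 1 FPKM.

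Of 11 fibrillar and fibril-associated collagen genes 7 fell in limma and none rose (voom 8 lower), with a median log2 fold change of −0.62. Col1a1 measured 38.0, 38.7 and 36.4 FPKM in lenvatinib 1 to 3, against 94.2, 86.1 and 88.6 FPKM in DMSO 1 to 3 (log2 fold change −1.23, limma adjusted p = 8.24e-04). Sparc stood at 2.57, 2.28 and 2.39 times Col1a1 in lenvatinib 1 to 3, against 1.42, 1.74 and 1.71 times in DMSO 1 to 3, so the collagen transcript was lower relative to Sparc. With libraries 2 and 3 of each group averaged, 0 of the 11 collagen genes passed in limma (8 at an unadjusted p below 0.05), with an adjusted p of 0.0951 for Col1a1. With the replicate block 3 passed (Col1a1, Col1a2 and Col3a1), and 3 or 4 passed when any one of lenvatinib 2 or 3 or DMSO 1, 2 or 3 was left out, against 9 without lenvatinib 1.

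Elastic fibre genes, partners of Lox and Loxl1, had a median log2 fold change of −0.33, with 1 of 14 passing as lower and none as higher. Negative values were found in 13 of the 14 (92.9%), against 63.9% of all genes tested. An unadjusted p below 0.05 was found in 8, against 22.0% of all genes tested. The gene that passed was Eln, for elastin, the main substrate of Loxl1, at 5.81 ± 1.10 FPKM in lenvatinib libraries and 11.9 ± 2.05 FPKM in DMSO libraries (log2 fold change −0.92, limma adjusted p = 0.0460). Among SPARC relatives and other matricellular proteins 1 of 15 passed, as lower, and 6 had an unadjusted p below 0.05. Ccn1 was the gene that passed, at 7.21 ± 1.07 FPKM in lenvatinib libraries and 11.8 ± 0.490 FPKM in DMSO libraries (limma adjusted p = 0.0437). Sparcl1, the closest relative of Sparc, measured 71.0, 62.6 and 63.8 FPKM in lenvatinib 1 to 3, against 69.3, 65.0 and 63.7 FPKM in DMSO 1 to 3, with overlapping groups and a log2 fold change of −0.01 (limma adjusted p = 0.969).

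Among 14 tested receptors that bind decorin, biglycan, SPARC or collagen, 1 rose and 1 fell in limma (voom 1 and 2). Tlr2, a Toll-like receptor for biglycan, averaged 21.5 ± 0.591 FPKM in lenvatinib libraries and 16.1 ± 0.489 FPKM in DMSO libraries (log2 fold change 0.40, limma adjusted p = 0.0265). Stab1, the scavenger receptor through which macrophages take up SPARC, averaged 2.80 ± 0.296 FPKM in lenvatinib libraries and 8.33 ± 0.329 FPKM in DMSO libraries (log2 fold change −1.30, limma adjusted p = 0.00165). The call of Stab1 was lost with libraries 2 and 3 averaged (limma adjusted p = 0.145) and with the replicate block (0.0518). Of 16 ligands, receptors and targets of TGF-β, a growth factor that drives matrix genes and that decorin binds, none passed (6 at an unadjusted p below 0.05, voom 0). Tgfb1 averaged 9.24 ± 2.72 FPKM in lenvatinib libraries and 15.8 ± 0.409 FPKM in DMSO libraries (limma adjusted p = 0.103). Smad4 went the other way, averaging 34.7 FPKM in lenvatinib and 25.7 FPKM in DMSO libraries (log2 fold change 0.42, limma adjusted p = 0.0833). Of these 16 genes, 6 were lower in every lenvatinib library than in any DMSO library, and 3 were higher. Over all genes tested 17.5% were apart and lower, and 27.5% were apart in either direction. The calls of Eln, Ccn1 and Tlr2 were lost when any one of lenvatinib 2 or 3 or DMSO 1, 2 or 3 was left out, with limma adjusted p of 0.0517 to 0.205 and no change of sign. They were also lost with libraries 2 and 3 averaged, with the replicate block and without any filter. The call of Ccn1 was lost with each of the 3 scalings too (limma adjusted p of 0.0737 to 0.107). That of Eln was lost with upper-quartile scaling (0.0506) and with the filter of 0.1 FPKM (0.0502). In the 18 alternative settings Eln passed in 7, Ccn1 in 6 and Tlr2 in 9.

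**Figure D4:**
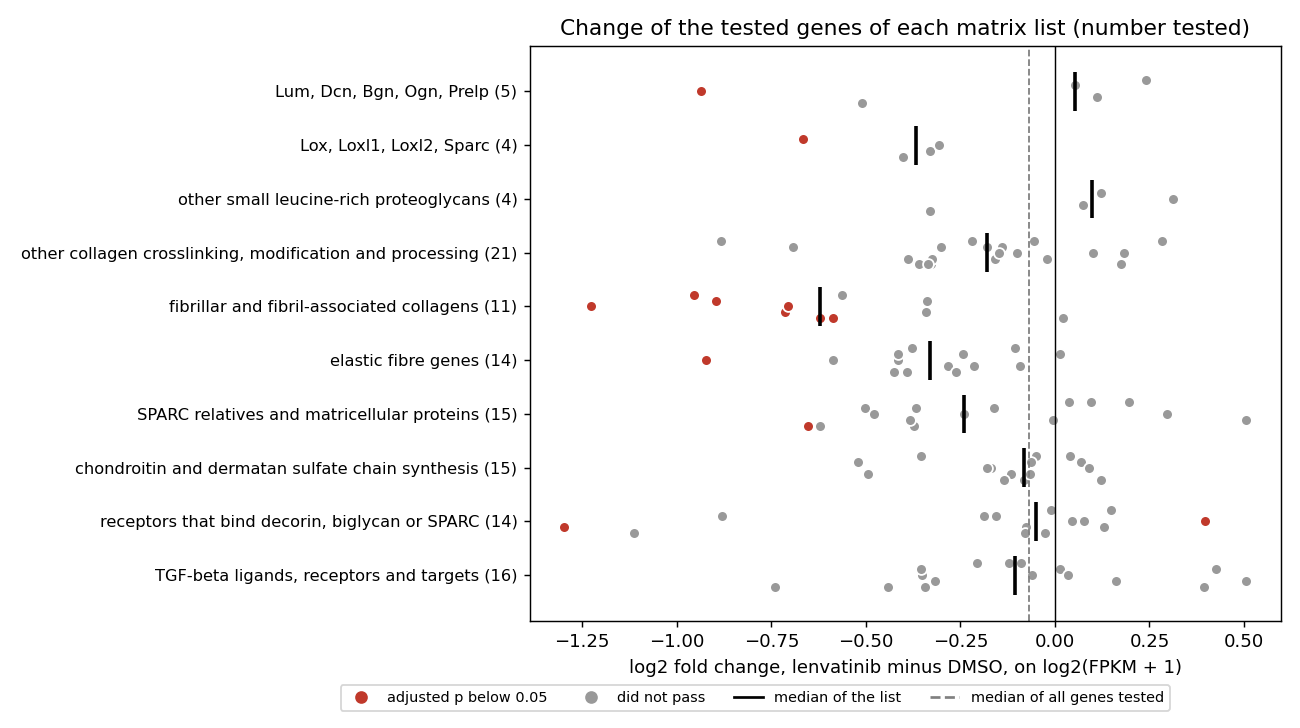
Log2 fold change, lenvatinib minus DMSO, of every tested gene of the matrix lists, with called genes in red, the median of each list as a black line and the median of all genes tested as a dashed line. The collagen list has its median at −0.62 and 7 of 11 genes called, whereas the 5 tested proteoglycans of the 10 spread from −0.94 for Lum to 0.24 for Prelp.

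Cell type markers were read from lists beside these genes, and in most lists none passed. Fibroblast markers, for the cells that make most of these proteins, did not pass in limma (0 of 10 tested, 1 at an unadjusted p below 0.05, voom 0), with a median log2 fold change of −0.24. The gene with the unadjusted p below 0.05 was Fbln1, for the matrix protein fibulin-1, which is also counted among the elastic fibre genes (log2 fold change −0.38, limma adjusted p = 0.0531). Their mean level was 3.74, 3.23 and 3.27 on the log2 scale in lenvatinib 1 to 3, against 3.67, 3.59 and 3.60 in DMSO 1 to 3. Lenvatinib 1 was the highest of all 6 libraries, as it was for Dcn and Prelp. The sum of the list was 161 to 277 FPKM in lenvatinib libraries and 231 to 241 FPKM in DMSO libraries, and Prrx1 and Twist2 stayed below 1 FPKM.

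Macrophage markers fell in 8 of 8 tested genes in limma (voom 7), and their sum was 142 to 196 FPKM in lenvatinib libraries and 341 to 386 FPKM in DMSO libraries. With libraries 2 and 3 of each group averaged 0 of the 8 passed in limma (8 at an unadjusted p below 0.05), with the replicate block 1, and 3 when any one of lenvatinib 2 or 3 or DMSO 2 or 3 was left out. Smooth muscle markers summed to 1497 to 1810 FPKM in lenvatinib libraries and 1420 to 1561 FPKM in DMSO libraries, with 0 of 9 passing (3 at an unadjusted p below 0.05, voom 0). Mesothelial markers, a further source of such proteins at the outer surface of the gut, summed to 3.74 to 6.67 FPKM in lenvatinib libraries and 1.87 to 2.17 FPKM in DMSO libraries, and 1 of the 6 genes reached 1 FPKM on average. In limma no gene passed among 6 of pericytes (2 at an unadjusted p below 0.05), 9 of blood endothelium (1), 4 of lymphatic endothelium (0), 2 of enteric glia and neurons (0), 5 of adipocytes (1), 3 of skeletal muscle (0) and 1 of mesothelium (1), and voom called 0 in each. The part of these markers and of the small intestinal transcripts in the changes of Lum, Sparc and the others was not tested.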

How the data were processed

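The deposited file holds FPKM values that the authors computed for each gene, 1 column per library. Per the submitters' processing notes, HTSeq (a read counter) and GRCm39 were used. Per the labels' protocols RNA was extracted with TRIzol, and a VAHTS Universal V10 kit was used. No aligner, annotation, strand setting or filter is stated in the labels, so overlapping antisense transcripts cannot be told apart. Whole reads were recovered from the FPKM steps for 23948 of 23951 genes above 0 (99.99%, within 0.01 reads), with gene lengths coming out whole within 0.02 bases for 98.9% of 1500 genes checked. The column of the first DMSO library is spelled differently in its label and was matched by group and number.

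Genes averaging 1 FPKM or more across libraries entered the test, made with limma 3.58.1 (R 4.3.3) on log2(FPKM + 1), trended and robust, two-sided, with Benjamini-Hochberg adjustment. The code was tested on simulated data. The 10 genes and all lists were chosen with earlier results of these data known. From each list the genes that passed and up to 3 more by unadjusted p could be named, of which some are printed. Loxl3, Loxl4, Ecm2, Epyc, Omd and Sparcl1, and the ratios and promoter motifs, were chosen after values were seen.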

Additional observations from a re-analysis of the deposited data

How the results depend on the processing

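In 18 alternative settings Lum kept a negative fold change throughout (−0.996 to −0.86 on the log2 scale) and passed in 16. Sparc did so as well (−0.77 to −0.59) and passed in 11. The 3 scalings, the other filters, a pseudocount of 0.1, the plain variance prior and voom on recovered reads changed no call among the 10 genes. Sample weights called 7 of them and 7582 of all genes (64.4%), with Prelp higher. Without any filter 140 of all genes passed. Leaving out 1 library at a time, 1 to 6 of the 10 genes and 45 to 4479 of all genes passed, against 2 and 239 with all libraries.

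Averaging libraries 2 and 3 left 0 of the 10 genes called in limma (2 at an unadjusted p below 0.05) and 4 of all genes. Keeping these pairs as a random block left 1, Lum (limma adjusted p = 0.0261), and 46 of all genes. With the replicate number as a block 0 of the 10 genes passed in limma (7 at an unadjusted p below 0.05), with adjusted p = 0.0503 for Lum and 0.118 for Sparc, and 29 of all genes passed. Same-numbered libraries did not deviate together (correlations of −0.196, −0.159 and −0.151 over genes). Since libraries 2 and 3 of each group were nearly alike, these correlations are not independent of each other. They cannot decide whether the numbers pair the samples. Depth limits Fmod, which rests on 44 to 130 reads per library.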
